A study of Mus musculus with 16 samples.

Results

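CGRP and NMU, neuropeptides with opposite known effects on group 2 innate lymphoid cells (ILC2s), were compared directly in lung ILC2s stimulated with IL-33. The comparison used the 8 of 16 mRNA-Seq libraries of the series whose labels give one of these neuropeptides, 4 with CGRP and 4 with NMU. In each set of 4, 2 libraries came from WT mice and 2 from Pac1-/- mice, which lack the phosphatase PAC1 encoded by Dusp2. The mice were on the C57BL/6J background and 6 to 8 weeks old, and their lung ILC2s were sorted and expanded for 1 to 2 weeks with IL-2 and IL-7. The cells of all 8 libraries then received IL-7 and IL-33 at 100 ng/mL each for 4 hours, with CGRP or NMU at 500 ng/mL. About 500 ILC2s per library were then sorted again, into lysis buffer. The other 8 libraries had IL-7 alone (4) or IL-7 and IL-33 without a neuropeptide (4), with the same genotypes. These are cultured cells, and all were taken at a single time, so neither the cells in the lung nor the course of a response was measured. The labels do not say whether replicates came from separate mice, so p-values below measure only the spread between these libraries.

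CGRP binds a receptor formed by Calcrl and Ramp1 that couples to Gs, raises cAMP and activates protein kinase A and the transcription factor CREB. CREB binds the cAMP response element (CRE) and is known for inducing immediate-early genes such as the Fos family and Nr4a nuclear receptors. NMU binds Nmur1, which couples to Gq and raises intracellular calcium, and is known as a strong inducer of the type 2 cytokines IL-5 and IL-13 in ILC2s, whereas CGRP is known to restrain ILC2 proliferation and IL-13 production.

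Between 6764990 and 12366500 reads per library, to 6 digits, were counted on genes in these 8 libraries, and levels are given as CPM, counts scaled to a library size of 1000000, after TMM scaling of the library sizes. A floor of 3 counts equalled 0.267 to 0.462 CPM, for counting error only, since no molecular identifiers are described. Dusp2 had 0 counts in 7 of the 8 libraries and 4.46 CPM in WT NMU 1, which does not check the genotype of the other WT libraries. The 8 ILC2 markers, Gata3, Il1rl1, Icos, Klrg1, Il7r, Rora, Ptprc and Thy1, were present in every library, with a summed level of 6441 to 7259 CPM with CGRP and 5289.8 to 6024 CPM with NMU. Gata3, the transcription factor that defines ILC2s, stood at 744, 692, 632 and 660.2 CPM with CGRP and 524, 495, 641 and 619 CPM with NMU, in the order WT 1, WT 2, Pac1-/- 1 and Pac1-/- 2 that is kept for every set of 4 values.

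The CGRP libraries differed from the NMU libraries in composition as well. Mitochondrial genes took 8.3 to 12.6% of the counts with CGRP and 3.32 to 5.54% with NMU, and ribosomal protein genes 10.9 to 14.5% and 5.57 to 10%. The summed level of 7 B cell markers was 506 to 1470.0 CPM with CGRP against 15 to 102 CPM with NMU, and that of 6 epithelium markers 11.1 to 25.1 CPM against 35.4 to 308 CPM. These 4 measures, the share of immunoglobulin genes and the sum of 2 ILC3 markers did not overlap between the treatments. Each gave p = 0.0286 in a two-sided exact permutation test, the smallest p that 4 against 4 libraries allow, and an adjusted p of 0.0762 over 16 measures. Among the B cell markers, all 7 had counts in at least 1 CGRP library, while 1 of 7 had 0 counts in all 4 NMU libraries. Of 8 T cell markers 1 was at 0 in every CGRP library and 2 in every NMU library, and their summed level overlapped (339.8 to 387 and 363 to 839 CPM). The macrophage and monocyte, granulocyte, mast cell and basophil, NK cell, endothelium, fibroblast and erythroid markers overlapped too. Replicates also lay farther apart with CGRP: the correlation of log2 levels across 6586 genes was 0.799 and 0.809 for the WT and Pac1-/- CGRP replicates, against 0.908 and 0.904 for NMU, where genes are not independent replicates. The part of these differences in any result below was not tested. A fit without the mitochondrial, ribosomal protein and immunoglobulin genes is given below. It cannot test this, since other transcripts of B cells, epithelium or ILC3s stay in the counts.

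**Figure D1:**
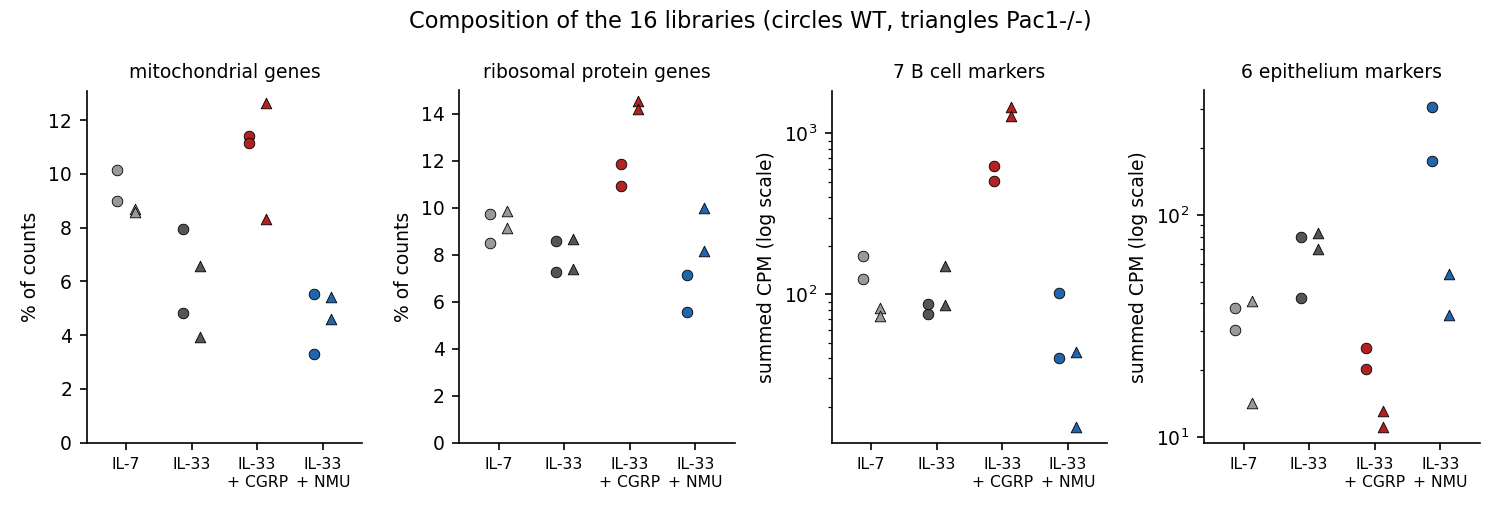
Share of counts on mitochondrial and ribosomal protein genes (%) and summed CPM of 7 B cell and 6 epithelium markers (log scale) in each of the 16 libraries, 1 point a library. The 4 CGRP libraries lie above the 4 NMU libraries in the first 3 panels and below them in the last.

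In the comparison of CGRP with NMU, with genotype as a covariate, 12834 genes passed the filter on low counts and 495 (3.86%) were called, 310 (2.42%) higher and 185 (1.44%) lower with CGRP. Genes were called with edgeR's quasi-likelihood test where the fold exceeded 1.5 and p, adjusted by Benjamini-Hochberg, was under 0.05, and log2 fold changes are CGRP over NMU throughout. The SE beside a log2 fold change is an approximation. It is the absolute log2 fold change divided by the square root of the F value of that test. The genes that rose with CGRP relative to NMU included Fos, Junb, Rgs2, Cd69 and Areg, and those that fell included Il13, Il9, Il5, Il17a, Cxcl3 and genes of ribosome assembly. Of the 495 genes, 485 had all 4 CGRP libraries on one side of all 4 NMU libraries, as had 1977 (15.4%) of all genes tested. The median log2 fold change over all genes tested was 0.031, against which the medians of gene lists below can be read. The number of calls changed when 1 library was left out: it was 252 without Pac1-/- NMU 2, 312 without WT NMU 1 and 322 without Pac1-/- CGRP 2. Such fits ran the filter anew and tested 15065 to 15748 genes, so the genes tested changed along with the library. Fitted together with the other 8 libraries, 820 genes were called, 394 higher and 426 lower with CGRP, so the balance of directions rested on this choice. Without the mitochondrial, ribosomal protein and immunoglobulin genes, 440 were called, 252 higher and 188 lower.

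**Figure D2:**
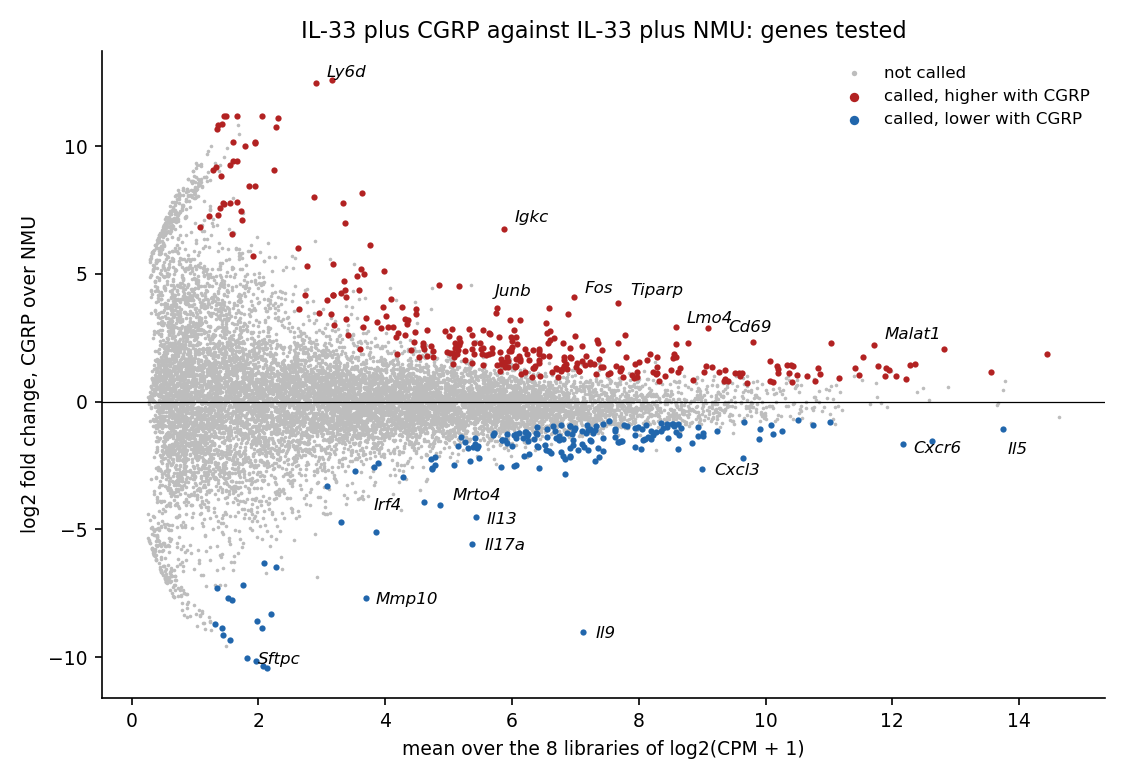
Log2 fold change of CGRP over NMU for the 12834 genes tested, against the mean over the 8 libraries of log2(CPM + 1). Coloured points are the 310 genes called higher and the 185 called lower with CGRP. Il9, Il17a and Il13 are labelled among the genes lower with CGRP, Fos, Junb and Lmo4 among those higher, and Ly6d, a B cell transcript, and Sftpc, an epithelial one, lie near the top and the bottom.

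Immediate-early genes and CREB targets formed a group that was higher with CGRP. Of 15 CREB target genes tested, 11 were called higher, with a median log2 fold change of 2.08 and a positive value for all 15. Of 11 AP-1 subunits tested, 6 were called higher (Fos, Fosb, Fosl2, Jun, Junb and Atf3) and 1, Batf, was lower. Fos, Fosb, Fosl2 and Atf3 are on both lists, so the 2 counts are not separate results. Both lists were drawn up with earlier results of these data known, and their counts are a description. Because several of these genes carry CRE-like letters close to their start, the RefSeq promoter windows (GRCm38.p6, 250 bases before to 50 after the start) of 3 of them, Fos, Rgs2 and Dusp1, are shown, with that of Areg, which was higher with CGRP but is on neither list, and those of 3 cytokine genes that were lower, for comparison. They lie at chr12:85473640-85473939 (plus strand) for Fos, chr1:144004100-144004399 (minus strand) for Rgs2, chr17:26508423-26508722 (minus strand) for Dusp1, chr5:91139349-91139648 (plus strand) for Areg, chr11:53634653-53634952 (minus strand) for Il13, chr13:56482208-56482507 (minus strand) for Il9 and chr1:20730655-20730954 (plus strand) for Il17a. Capitals mark the full CRE, TGACGTCA, its core TGACG, which also lies inside the full CRE, and the AP-1 site TGANTCA, each on either strand.
Fos: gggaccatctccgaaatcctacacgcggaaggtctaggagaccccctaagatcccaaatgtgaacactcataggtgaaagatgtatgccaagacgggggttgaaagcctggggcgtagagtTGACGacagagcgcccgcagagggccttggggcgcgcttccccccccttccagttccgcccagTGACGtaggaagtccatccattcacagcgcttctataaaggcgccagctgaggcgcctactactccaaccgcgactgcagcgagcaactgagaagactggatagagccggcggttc
Rgs2: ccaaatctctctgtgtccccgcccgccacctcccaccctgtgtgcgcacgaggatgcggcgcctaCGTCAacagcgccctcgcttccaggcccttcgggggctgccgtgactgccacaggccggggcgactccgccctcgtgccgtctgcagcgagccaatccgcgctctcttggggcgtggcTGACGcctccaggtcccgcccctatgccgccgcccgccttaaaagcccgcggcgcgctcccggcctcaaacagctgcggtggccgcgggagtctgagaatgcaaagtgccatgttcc
Dusp1: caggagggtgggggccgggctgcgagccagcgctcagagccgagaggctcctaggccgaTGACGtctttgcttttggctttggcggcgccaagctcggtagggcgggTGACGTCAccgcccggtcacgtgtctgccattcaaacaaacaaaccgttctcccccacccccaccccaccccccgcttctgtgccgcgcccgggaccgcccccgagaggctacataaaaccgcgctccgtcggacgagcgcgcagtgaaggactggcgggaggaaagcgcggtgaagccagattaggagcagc
Areg: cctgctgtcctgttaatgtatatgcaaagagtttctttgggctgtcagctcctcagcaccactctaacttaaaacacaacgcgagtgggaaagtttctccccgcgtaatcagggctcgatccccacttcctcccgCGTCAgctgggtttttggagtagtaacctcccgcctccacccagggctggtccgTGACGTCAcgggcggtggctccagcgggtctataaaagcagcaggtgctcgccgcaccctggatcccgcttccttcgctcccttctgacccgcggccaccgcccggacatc
Il13: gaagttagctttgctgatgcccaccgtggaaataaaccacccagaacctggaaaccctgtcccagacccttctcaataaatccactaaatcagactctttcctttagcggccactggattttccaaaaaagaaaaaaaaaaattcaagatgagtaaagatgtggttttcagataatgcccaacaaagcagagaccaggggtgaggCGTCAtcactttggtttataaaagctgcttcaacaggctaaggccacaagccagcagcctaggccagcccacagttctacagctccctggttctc
Il9: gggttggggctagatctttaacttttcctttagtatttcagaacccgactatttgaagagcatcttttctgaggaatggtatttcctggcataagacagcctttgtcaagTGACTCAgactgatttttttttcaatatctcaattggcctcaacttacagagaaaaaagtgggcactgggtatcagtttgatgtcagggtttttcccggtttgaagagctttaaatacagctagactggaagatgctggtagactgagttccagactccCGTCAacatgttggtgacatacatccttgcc
Il17a: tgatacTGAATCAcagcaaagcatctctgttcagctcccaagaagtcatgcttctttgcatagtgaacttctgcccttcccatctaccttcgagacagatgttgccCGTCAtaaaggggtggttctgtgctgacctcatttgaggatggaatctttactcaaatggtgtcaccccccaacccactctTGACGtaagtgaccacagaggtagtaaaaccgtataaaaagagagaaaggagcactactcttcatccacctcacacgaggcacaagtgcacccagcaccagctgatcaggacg
Areg and Dusp1 each hold 1 full CRE in the bases before the start, and Fos and Rgs2 hold 2 cores each. Il13 holds 1 core, Il9 1 core and 1 AP-1 site, and Il17a 2 cores and 1 AP-1 site. Such letters are common. The full CRE was found for 6.56% of the 183 genes called higher and 1.94% of the 155 called lower that have a RefSeq window, against 3.8% of the 8744 tested genes with one and 2.03% of all 27025. The core was found for 45.9% and 40% of these 2 sets and 36.4% of tested genes. For the AP-1 site the shares were 6.56%, 8.39% and 6.06%, and for the NFAT core GGAAAA 27.9%, 23.9% and 24.4%. Over all genes with a window, 23% held the CRE core, 8.97% the AP-1 site and 26.1% the NFAT core. These are matches of letters, and binding was not measured.

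Fos (ENSMUSG00000021250, chromosome 12, 85473890 to 85477273), an AP-1 subunit, stood at 409.6, 487, 591 and 589.6 CPM with CGRP and 25.8, 31.8, 23.1 and 42.9 CPM with NMU. The lowest CGRP library was far above the highest NMU library, and the level with NMU was close to the 24.6 to 48.8 CPM seen with IL-33 alone. The fold between the means was 16.8 (log2 fold change 4.08 ± 0.25 (SE), adjusted p = 0.000427). Junb (ENSMUSG00000052837, chromosome 8, 84974484 to 84978718), a partner of Fos, stood at 285, 253, 429.6 and 412 CPM with CGRP and 11.7, 26.3, 43.9 and 33.5 CPM with NMU, again without overlap (log2 fold change 3.65 ± 0.29 (SE), adjusted p = 0.000942). Of Junb, 7.52% of its exon bases are shared with Prdx2 on the opposite strand, and the use of strand in counting is not given in the sources used here. Fosb stood at 119, 134, 252 and 225 CPM with CGRP and 10.2, 17.6, 14 and 23.3 CPM with NMU, higher in every CGRP library (log2 fold change 3.46 ± 0.30 (SE), adjusted p = 0.00138). Atf3, a stress-inducible member of the same family, stood at 162, 185, 497 and 241 CPM with CGRP and 34.5, 48.1, 28.9 and 41 CPM with NMU, with the highest value in Pac1-/- CGRP 1 and no overlap (log2 fold change 2.76 ± 0.38 (SE), adjusted p = 0.00661). Jun and Fosl2 were higher by 4.91 and 1.70 (adjusted p = 0.00182 and 0.00273). Batf, an AP-1 factor needed for type 2 cytokine expression, went the other way at 32.5, 71.3, 64.3 and 49.2 CPM with CGRP and 189, 238, 252 and 277 CPM with NMU, lower in all 4 CGRP libraries (log2 fold change -2.11 ± 0.28 (SE), adjusted p = 0.00574). Fosl1, Jund, Maff and Mafk were not called, with log2 fold changes from -6.54 to 2.17. Without WT CGRP 1, the sole CGRP library with Fosl1 counts, Fosl1 was called lower (adjusted p = 0.00444). It was also called lower by DESeq2 (adjusted p = 1.19e-05) and by edgeR with all 16 libraries (0.015) or no filter (1.11e-05). Of its exon bases, 57.2% are shared with Ccdc85b on the opposite strand.

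Rgs2 (ENSMUSG00000026360, chromosome 1, 143999338 to 144004161), which shortens Gq and other G protein signals, stood at 3943, 3894, 6038 and 4905 CPM with CGRP and 995, 857, 999.8 and 947 CPM with NMU. The lowest CGRP value was 3894 CPM and the highest NMU value 999.8 CPM (log2 fold change 2.31 ± 0.17 (SE), adjusted p = 0.000706). Dusp1 (ENSMUSG00000024190, chromosome 17, 26505590 to 26562128), a phosphatase of MAP kinases, stood at 104, 103, 143 and 146 CPM with CGRP and 12.2, 20.4, 25.9 and 20.7 CPM with NMU, without overlap (log2 fold change 2.68 ± 0.27 (SE), adjusted p = 0.00199). Nr4a3, an orphan nuclear receptor, stood at 224, 294, 235 and 228 CPM with CGRP and 49.2, 30.5, 79.2 and 93.7 CPM with NMU, also without overlap (log2 fold change 2.08 ± 0.32 (SE), adjusted p = 0.0105). Its relative Nr4a2 was called (log2 fold change 3.18, adjusted p = 0.00204), whereas Nr4a1 missed the threshold at 0.73 (adjusted p = 0.0977), though not with DESeq2 (adjusted p = 0.0125) or with at least 10 counts in every library (adjusted p = 0.0347). Rgs1 and the kinase gene Sik1 were higher (log2 fold change 1.60, adjusted p = 0.00512, and log2 fold change 2.94, adjusted p = 0.0165), the latter not without Pac1-/- NMU 2 (adjusted p = 0.0526). Crem, a CRE-binding feedback gene, was higher by 0.88 (adjusted p = 0.0229), but not without Pac1-/- CGRP 2, Pac1-/- NMU 2 or WT CGRP 2 (adjusted p 0.0517 to 0.0798). The phosphodiesterase genes Pde4b and Pde4d, which degrade cAMP, and the clock gene Per1 were not called, at 1.49, 0.83 and 1.06. Pde4b was called higher by DESeq2 (adjusted p = 0.00493) and by edgeR with all 16 libraries, with at least 10 counts in every library and with no filter (adjusted p 0.00684 to 0.0233).

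**Figure D3:**
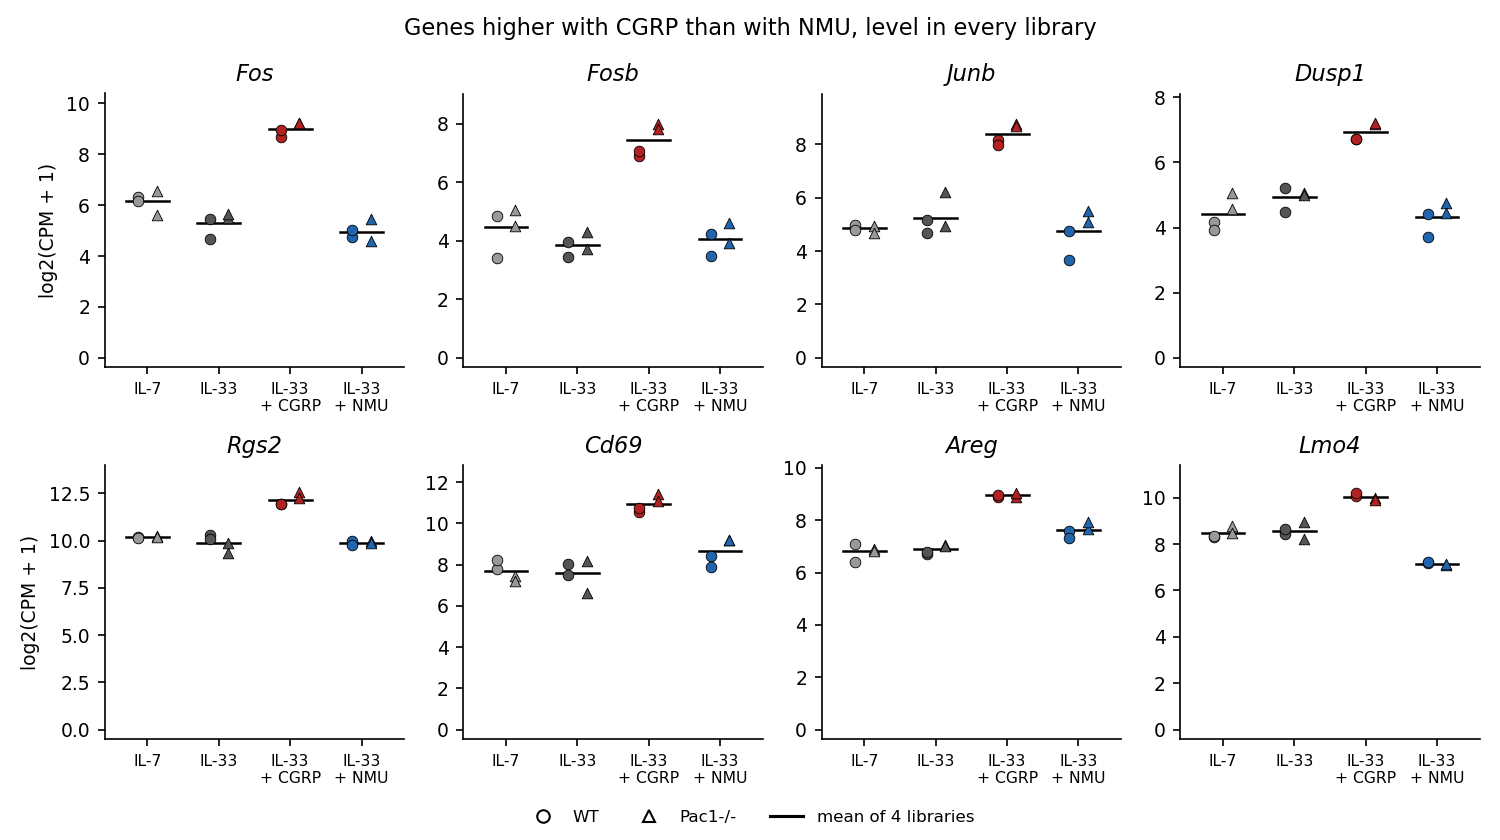
Level of 8 genes in each of the 16 libraries as log2(CPM + 1), by treatment (all with IL-7), with circles for WT, triangles for Pac1-/- and a line at the mean of 4 libraries. In every panel the 4 CGRP libraries lie above the 4 NMU libraries, and Lmo4 is the 1 panel of 8 in which all NMU libraries lie below all IL-33 libraries.

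Other early-response and feedback genes were also higher with CGRP. Of 14 EGR, IER and other early genes, 5 were called higher (Gadd45b, Ier2, Klf4, Btg2 and Klf6), the median being 1.12. Gadd45b, a stress and growth-arrest gene, stood at 846, 1428, 2327 and 1618 CPM with CGRP and 153, 229.9, 231 and 213 CPM with NMU, with no overlap (log2 fold change 2.88 ± 0.27 (SE), adjusted p = 0.00178). Klf6 was not called without Pac1-/- NMU 2 (adjusted p = 0.0504). Egr1, Egr2 and Myc were not called. Of 12 ERK feedback genes, 3 were higher: Dusp1, Dusp5, which inactivates ERK (log2 fold change 1.52, adjusted p = 0.00661), and the receptor kinase inhibitor Spry2 (log2 fold change 1.25, adjusted p = 0.0173), which was not called without Pac1-/- NMU 2 (adjusted p = 0.0601). Of 14 NF-kB genes, 5 were higher, and 4 of these are inhibitors or modulators of the pathway. Tnfaip3, which encodes the inhibitor A20, stood at 567, 773, 717 and 773 CPM with CGRP and 173, 227, 197 and 249 CPM with NMU, without overlap (log2 fold change 1.77 ± 0.19 (SE), adjusted p = 0.00239). Nfkbiz, Nfkbia and the subunit gene Rel had log2 fold changes of 1.74, 1.39 and 1.49, with adjusted p of 0.00715, 0.0165 and 0.0185. Nfkbid, at 2.05 (adjusted p = 0.0429), lost its call without Pac1-/- CGRP 1, Pac1-/- CGRP 2, Pac1-/- NMU 1, Pac1-/- NMU 2, WT CGRP 2, WT NMU 1 or WT NMU 2 (adjusted p 0.0767 to 0.15).

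Zfp36, which promotes decay of cytokine mRNAs, was the 1 gene called of 7 decay factors, at 73.2, 102, 97.4 and 88.3 CPM with CGRP and 18, 20.6, 18.7 and 18.2 CPM with NMU (log2 fold change 2.28 ± 0.26 (SE), adjusted p = 0.00329). Map3k8, a kinase upstream of ERK, and Bambi, a pseudoreceptor of the TGF-beta family, were also higher (log2 fold change 2.29, adjusted p = 0.00238, and log2 fold change 3.67, adjusted p = 0.00178). Socs2, a feedback inhibitor of cytokine receptors, was the 1 called of 8 SOCS genes (log2 fold change 1.79, adjusted p = 0.00182), and Tnfsf11, which encodes RANKL, the 1 called of 16 TNF superfamily genes (log2 fold change 2.31, adjusted p = 0.0102). Tiparp, a mono-ADP-ribosyltransferase gene, stood at 873, 538, 887 and 848 CPM with CGRP and 46.5, 52.4, 36.6 and 84.5 CPM with NMU, with WT CGRP 2 below the other CGRP libraries and far above every NMU library (log2 fold change 3.86 ± 0.31 (SE), adjusted p = 0.000932). Gna13, a G protein alpha subunit gene, stood at 379, 362, 325 and 416 CPM with CGRP and 63.5, 69.5, 79.4 and 67.6 CPM with NMU, without overlap (log2 fold change 2.43 ± 0.18 (SE), adjusted p = 0.000816). Nsun6, an RNA methyltransferase gene, stood at 142, 102, 129 and 140.5 CPM with CGRP and 5.69, 3.23, 6.5 and 7.02 CPM with NMU, also without overlap (log2 fold change 4.57 ± 0.32 (SE), adjusted p = 0.000706). The long noncoding RNA gene Malat1 stood at 6227, 6818, 7155 and 8780.4 CPM with CGRP and 1389, 1334, 1782 and 1878 CPM with NMU (log2 fold change 2.22 ± 0.15 (SE), adjusted p = 0.00064), and mean levels were 122 and 18.3 CPM for the small nuclear RNA gene Rn7sk, which has many near copies (log2 fold change 2.81, adjusted p = 0.00411).

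Genes of ILC2 identity went both ways. Of the 8 ILC2 markers, Rora, Il1rl1, Il7r and Thy1 were called higher with CGRP and Ptprc and Klrg1 lower, Thy1 not without WT NMU 1 (adjusted p = 0.0504). Ptprc, which encodes the leukocyte antigen CD45, stood at 1129, 1252, 1112 and 1042 CPM with CGRP and 1951, 1655, 1985 and 1923 CPM with NMU (log2 fold change -0.70, adjusted p = 0.0361), a call lost without any of 7 libraries (all but WT NMU 2, adjusted p 0.067 to 0.144). Of 12 ILC2 transcription factors, 5 were called higher, with a median of 0.87, and 3 without Pac1-/- NMU 2 or without WT NMU 1. Lmo4 (ENSMUSG00000028266, chromosome 3, 144188530 to 144205220), a LIM-domain cofactor, had the smallest p of all genes tested and stood at 1068, 1179, 1017 and 946 CPM with CGRP and 143, 147, 134 and 141 CPM with NMU. The NMU values were tightly spaced, the CGRP mean was 7.46 times as high, and the 296 to 486 CPM of the IL-33 libraries lay between them (log2 fold change 2.92 ± 0.15 (SE), adjusted p = 0.000212). Rora, required for ILC2 development, stood at 1802, 1694, 1605 and 1766 CPM with CGRP and 798, 728, 838 and 840.0 CPM with NMU, without overlap (log2 fold change 1.13 ± 0.14 (SE), adjusted p = 0.00478). Id2, a regulator of all innate lymphoid cells, was higher by 1.03 (adjusted p = 0.0154). Nfil3 and Maf were higher by 1.80 and 1.46 (adjusted p = 0.0329 and 0.0367), the first not without Pac1-/- CGRP 1, Pac1-/- NMU 2 or WT NMU 1 (adjusted p 0.0573 to 0.0751) and the second not without any of 7 of the 8 libraries (all but Pac1-/- CGRP 1, adjusted p 0.067 to 0.0968). Gata3 differed by 0.29 and was not called.

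Among 14 cytokine receptor genes, 3 were higher and 1 lower. Il1rl1 (ENSMUSG00000026069, chromosome 1, 40429570 to 40465415), which encodes the IL-33 receptor ST2, stood at 1178, 1302, 998 and 1176 CPM with CGRP and 516, 528, 530.1 and 577 CPM with NMU, higher in every CGRP library (log2 fold change 1.14 ± 0.15 (SE), adjusted p = 0.00659). Il7r, the receptor for IL-7, stood at 900.0, 1048, 741 and 923 CPM with CGRP and 427, 299, 371 and 344 CPM with NMU, again without overlap (log2 fold change 1.35 ± 0.18 (SE), adjusted p = 0.00659). Il2ra, the high-affinity IL-2 receptor subunit, went the other way at 1010.0, 1030.0, 632 and 675 CPM with CGRP and 2015, 1702, 1733 and 1939 CPM with NMU (log2 fold change -1.15 ± 0.18 (SE), adjusted p = 0.0108). Il10ra was higher by 1.45 (adjusted p = 0.0332), a call lost without any of 7 of the 8 libraries (all but Pac1-/- CGRP 2, adjusted p 0.0588 to 0.129). Cd69, an early activation marker that retains lymphocytes in tissue, stood at 1511, 1721, 2724 and 2182 CPM with CGRP and 335, 231, 578 and 586 CPM with NMU, and both sets of 4 were above the 98.9 to 287 CPM of IL-33 alone except WT NMU 2 (log2 fold change 2.32 ± 0.19 (SE), adjusted p = 0.00104). Tigit, an inhibitory receptor, stood at 81.8, 75.5, 102 and 92.9 CPM with CGRP and 366, 291, 318 and 398 CPM with NMU, higher in all NMU libraries (log2 fold change -1.94 ± 0.18 (SE), adjusted p = 0.00182). Of 14 homing receptors, the chemokine receptors Ccr2 and Cxcr4 were higher, and Cxcr6 and the adhesion receptor Cd44 were lower. Cxcr6, which holds ILC2s in the lung, stood at 2154, 2495, 3187 and 2466 CPM with CGRP and 8855, 9066, 6858 and 8542 CPM with NMU (log2 fold change -1.67 ± 0.18 (SE), adjusted p = 0.00264). Ccr2 stood at 994, 1199, 1121 and 1214 CPM with CGRP and 584, 507, 507 and 499 CPM with NMU (log2 fold change 1.14 ± 0.15 (SE), adjusted p = 0.00661), and Cd44 at 651, 665, 908 and 619 CPM with CGRP and 1692, 1453, 1902 and 2008 CPM with NMU (log2 fold change -1.28 ± 0.17 (SE), adjusted p = 0.00549). In each of these 3 genes the 2 treatments did not overlap.

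Areg (ENSMUSG00000029378, chromosome 5, 91139599 to 91148432), which encodes the tissue-repair factor amphiregulin, was the 1 called of 11 growth factor and other cytokine genes. It stood at 470.0, 497, 477 and 529 CPM with CGRP and 192, 157, 202 and 241 CPM with NMU, with little spread and no overlap, and at 104 to 132 CPM with IL-33 alone (log2 fold change 1.35 ± 0.17 (SE), adjusted p = 0.00471). Csf2, the GM-CSF gene, stood at 2245, 1869.8, 2311 and 2079 CPM with CGRP and 1880.5, 1055, 6402 and 3865 CPM with NMU, where the 4 NMU values spanned those with CGRP (log2 fold change -0.34, adjusted p = 0.715). Pomc, the precursor gene of several peptide hormones, stood at 22.3, 34.6, 48 and 42.3 CPM with CGRP and 3.08, 0.668, 3.15 and 1.8 CPM with NMU, low in every NMU library (log2 fold change 4.08 ± 0.63 (SE), adjusted p = 0.0107). Mt1, a metal-binding metallothionein, stood at 107, 80.4, 284 and 267 CPM with CGRP and 10, 5.01, 6.02 and 7.74 CPM with NMU (log2 fold change 4.52 ± 0.45 (SE), adjusted p = 0.00199), and the heat shock gene Hspa1b at 86.1, 57.4, 65.9 and 85.6 CPM with CGRP and 4.62, 1.89, 14 and 8.19 CPM with NMU (log2 fold change 3.62 ± 0.54 (SE), adjusted p = 0.00996); reads of Hspa1b and its near-identical copy Hspa1a cannot be told apart with certainty. Of 14 heat shock and metallothionein genes, 4 were called higher, Mt1, Hspa1b, Hspa1a and Hspa2, and 0 lower. The heat shock genes Hspa8, Hsp90aa1, Hsp90ab1 and Dnaja1 were not called.

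Il13, Il9, Il5 and Il17a, effector cytokine genes of ILC2s, were higher with NMU, whereas Il4, Il17f and Csf2 were not called. Of the 4 type 2 cytokine genes, Il13, Il9 and Il5 were called lower with CGRP, and of 2 type 3 genes that could be tested Il17a was. Il13 (ENSMUSG00000020383, chromosome 11, 53631324 to 53634702), a driver of mucus production and airway reactivity, stood at 6.67, 14.6, 9.01 and 5.03 CPM with CGRP and 115, 140.1, 347 and 301 CPM with NMU. Every NMU library exceeded every CGRP library, and the IL-33 libraries lay between at 18.7 to 38.6 CPM. The NMU mean was 25.6 times the CGRP mean (log2 fold change -4.52 ± 0.51 (SE), adjusted p = 0.00301). Il9 (ENSMUSG00000021538, chromosome 13, 56479277 to 56482246), a mast cell and ILC2 growth factor, stood at 38.1, 15, 0.81 and 0.258 CPM with CGRP and 3284, 2084, 4791 and 2932 CPM with NMU, with 2 Pac1-/- CGRP libraries close to the floor and all NMU libraries at 2084 CPM or above (log2 fold change -8.99 ± 1.35 (SE), adjusted p = 0.0102). With IL-33 alone it ranged from 96.8 to 288 CPM. Il5 (ENSMUSG00000036117, chromosome 11, 53720794 to 53725106), the eosinophil growth factor, stood at 9474, 10416, 9535 and 8671 CPM with CGRP and 14977, 16211, 27479 and 24132 CPM with NMU, without overlap (log2 fold change -1.05 ± 0.20 (SE), adjusted p = 0.0254). Its call was lost without Pac1-/- CGRP 2 (adjusted p = 0.0767).

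Il17a (ENSMUSG00000025929, chromosome 1, 20730905 to 20734496), a neutrophil-recruiting cytokine with no counts under IL-33 alone, stood at 2.31, 0, 12.7 and 31.4 CPM with CGRP and 228, 157, 512 and 319 CPM with NMU, far higher in each NMU library (log2 fold change -5.57 ± 0.96 (SE), adjusted p = 0.0169). The summed level of 2 ILC3 markers was 0 to 1.24 CPM with CGRP and 1.26 to 5.64 CPM with NMU, and its part in this difference was not tested. Il17f, the neighbour and relative of Il17a, stood at 417, 436, 148 and 54.5 CPM with CGRP and 614, 366, 1299.6 and 1284 CPM with NMU, where the WT libraries of both treatments overlapped (log2 fold change -1.91, adjusted p = 0.215). Il17f was called lower with CGRP within Pac1-/- ILC2s and, over both genotypes, by edgeR with no filter (adjusted p = 1.37e-09). Il22 had 0 counts in 7 of the 8 libraries and was not tested. Il4 stood at 145, 126, 86.7 and 90 CPM with CGRP and 68, 61.9, 125 and 73.2 CPM with NMU, overlapping and not called (log2 fold change 0.47, adjusted p = 0.482). Il2 stood at 297, 224, 282 and 249.6 CPM with CGRP and 81.7, 30.1, 267 and 179 CPM with NMU and was not called by edgeR (log2 fold change 1.26, adjusted p = 0.199) but was by DESeq2 (adjusted p = 0.0279). Il3, a growth factor of mast cells and basophils, stood at 133, 116, 79.1 and 33.1 CPM with CGRP and 0.154, 0.111, 77.3 and 54.2 CPM with NMU, at or below the floor in the 2 WT NMU libraries and in the range of CGRP in the 2 Pac1-/- ones. Its adjusted p was 0.459 over both genotypes, 0.0107 within WT, 0.912 within Pac1-/- and 0.0558 for the difference between genotypes. Over both genotypes it was called higher with CGRP by DESeq2 (adjusted p = 0.0295), with all 16 libraries in 1 edgeR fit (0.0014) and with no filter (3.56e-05). Irf4, a transcription factor of cytokine-producing lymphocytes, stood at 6.85, 7.01, 2.43 and 8.25 CPM with CGRP and 108, 38.6, 139 and 101 CPM with NMU, low in every CGRP library (log2 fold change -3.91 ± 0.55 (SE), adjusted p = 0.00756).

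**Figure D4:**
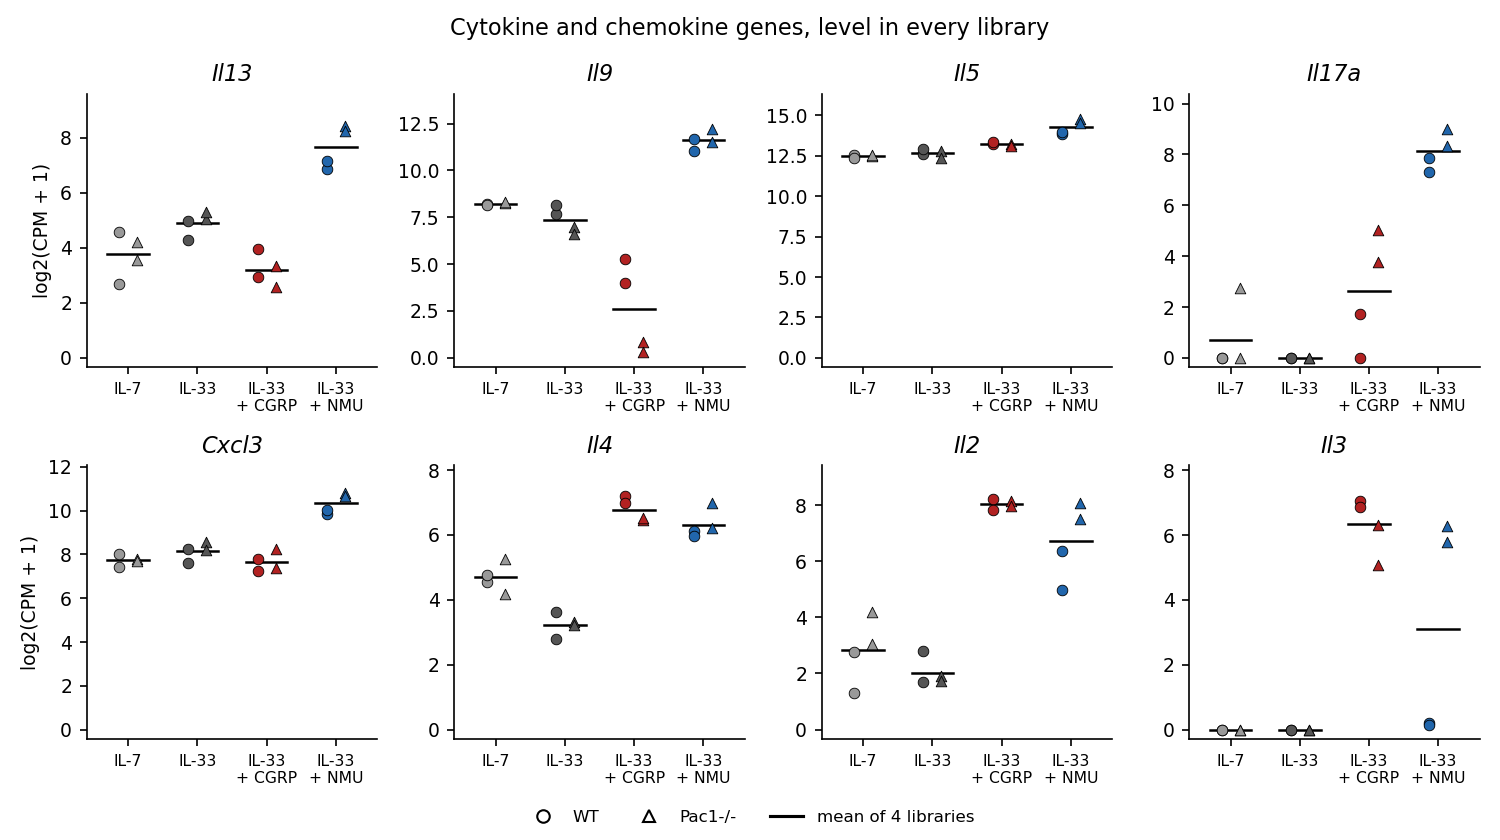
Level of 8 cytokine and chemokine genes in each of the 16 libraries as log2(CPM + 1), by treatment (all with IL-7), with circles for WT, triangles for Pac1-/- and a line at the mean of 4 libraries. Il13, Il9, Il5, Il17a and Cxcl3 are higher in each NMU than in each CGRP library, Il4 and Il2 are raised above IL-33 alone in both, and Il3 is near 0 in the 2 WT NMU libraries.

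Of 9 chemokine ligand genes, 1 was called, and 7 had negative values. Cxcl3 (ENSMUSG00000029379, chromosome 5, 90786103 to 90789600), a neutrophil attractant, stood at 149, 219, 302 and 167 CPM with CGRP and 909, 1031, 1785 and 1654 CPM with NMU, without overlap, and at 193 to 379.7 CPM with IL-33 alone (log2 fold change -2.62 ± 0.25 (SE), adjusted p = 0.00182). Cxcl2, its close relative, differed by -0.37 (adjusted p = 0.365). Ccl3 stood at 0, 0, 0.101 and 1.8 CPM with CGRP and 186, 63.4, 19.6 and 12.8 CPM with NMU (log2 fold change -6.86, adjusted p = 0.0671), and it was called lower without Pac1-/- CGRP 2, Pac1-/- NMU 1, Pac1-/- NMU 2 or WT CGRP 1 (adjusted p 0.00156 to 0.0485). Mmp10, a matrix-degrading protease gene, stood at 0.0889, 0.329, 2.03 and 0 CPM with CGRP and 160.1, 129.9, 57.3 and 141 CPM with NMU, near 0 in the CGRP libraries (log2 fold change -7.68 ± 1.05 (SE), adjusted p = 0.00661). Lilr4b, a receptor gene with near-identical relatives that can share reads, stood at 439, 396, 383 and 289.8 CPM with CGRP and 1789, 1312, 2254 and 1633 CPM with NMU (log2 fold change -2.19 ± 0.22 (SE), adjusted p = 0.00204).

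Genes of the CGRP and NMU signalling routes were called in both directions. Their lists are small, and their counts can be read beside the 3.86% of all genes tested that were called. Calcrl (ENSMUSG00000059588, chromosome 2, 84330626 to 84425411), the CGRP receptor, stood at 80.5, 71.4, 64.8 and 94.6 CPM with CGRP and 230.4, 117, 403 and 313 CPM with NMU, higher with NMU in every library (log2 fold change -1.65 ± 0.32 (SE), adjusted p = 0.026), a call lost without Pac1-/- CGRP 2 or WT NMU 1 (adjusted p 0.0543 to 0.0596). Its partner Ramp1 stood at 222, 164, 258 and 377 CPM with CGRP and 226, 146, 305 and 247 CPM with NMU, overlapping (log2 fold change 0.16, adjusted p = 0.796). Nmur1 (ENSMUSG00000026237, chromosome 1, 86386303 to 86426228), the NMU receptor, was low at 3.65, 0, 4.86 and 2.96 CPM with CGRP and 2.77, 11.1, 0.955 and 4.86 CPM with NMU, overlapping, and no difference was detectable at this depth. Calca, the gene of CGRP itself, stood at 7411, 7889, 5059 and 4619 CPM with CGRP and 5928, 4007, 5070.0 and 4249 CPM with NMU, overlapping (log2 fold change 0.36, adjusted p = 0.347). Ptger2, a prostaglandin E2 receptor that also couples to Gs, was lower with CGRP at 27.6, 21.8, 6.38 and 8.76 CPM with CGRP and 73.1, 94, 73.3 and 71.3 CPM with NMU (log2 fold change -2.47 ± 0.41 (SE), adjusted p = 0.0144). Of 15 cAMP signalling components, 1 was called higher, the phosphodiesterase Pde7a (log2 fold change 1.85, adjusted p = 0.0276), and not without Pac1-/- NMU 1, WT CGRP 2 or WT NMU 2 (adjusted p 0.0543 to 0.0623). Of 20 Gq and calcium-NFAT components, the inositol trisphosphate receptors Itpr1 and Itpr2 were higher (log2 fold change 2.65, adjusted p = 0.0194, and log2 fold change 1.94, adjusted p = 0.00705). Of 11 NFAT target genes, edgeR called 0 in either direction with a median of 0.48 (DESeq2, which called 1691 genes or 13.2% of all tested, called 3).

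Ribosome biogenesis genes and chaperonin subunits called in the comparison were lower with CGRP. These lists were drawn up after the calls had been seen, so their counts are a description. Of 69 ribosome biogenesis genes, 15 were called lower, 66 had negative values and the median was -1.15. Mrto4 (ENSMUSG00000028741, chromosome 4, 139347435 to 139352576), a factor of large-subunit assembly, stood at 8.89, 5.59, 3.54 and 9.41 CPM with CGRP and 139.5, 120.4, 97.2 and 103 CPM with NMU, at most 9.41 CPM with CGRP and at least 97.2 CPM with NMU (log2 fold change -4.03 ± 0.39 (SE), adjusted p = 0.00182). Nop16, also of the large subunit, stood at 60.2, 44.4, 42.6 and 47.9 CPM with CGRP and 193, 232, 153 and 211 CPM with NMU (log2 fold change -1.99 ± 0.22 (SE), adjusted p = 0.00277). Pno1, a small-subunit factor, stood at 53.1, 29.9, 85.6 and 68.7 CPM with CGRP and 246, 232, 258 and 304 CPM with NMU (log2 fold change -2.17 ± 0.26 (SE), adjusted p = 0.00411). Dkc1 and Nhp2, subunits of the pseudouridylating H/ACA particle, differed by -1.55 and -1.46 (adjusted p = 0.00661 and 0.00471). The IL-33 libraries lay between the treatments for Mrto4, at 34.2 to 70.8 CPM, and for Nop16, at 72.9 to 139.5 CPM.

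All 10 chaperonin subunits had negative values with a median of -1.32, and 5 were called. Cct6a, of the cytosolic chaperonin that folds actin and tubulin, stood at 103, 137, 141 and 95.9 CPM with CGRP and 330.4, 455, 273 and 401 CPM with NMU (log2 fold change -1.59 ± 0.23 (SE), adjusted p = 0.00867), and Hspd1 and Hspe1, of the mitochondrial one, differed by -1.49 and -1.53 (adjusted p = 0.0124 and 0.0109). Of 23 genes of cytosolic aminoacyl-tRNA synthetases and their partners, 3 were lower, among them Nars (log2 fold change -1.62, adjusted p = 0.00661), with a median of -1.15. Chchd4, a mitochondrial import factor, stood at 27.4, 19.5, 21.5 and 22.9 CPM with CGRP and 147, 101, 142 and 155 CPM with NMU (log2 fold change -2.54 ± 0.26 (SE), adjusted p = 0.00204), and the cyclophilin gene Ppid at 57.7, 63.9, 90.7 and 92.3 CPM with CGRP and 279, 270.2, 282 and 299 CPM with NMU (log2 fold change -1.90 ± 0.19 (SE), adjusted p = 0.00203). The ribosomal protein genes themselves went the other way: of 84, 24 were called higher with CGRP, with a median of 0.76, many of them with pseudogene copies that can take reads. Asns and Psat1, of amino acid synthesis, were lower (log2 fold change -2.61, adjusted p = 0.00705, and log2 fold change -2.34, adjusted p = 0.0043) among 12 integrated stress response genes, and Ppp1r15a, a phosphatase subunit of that response, was higher (log2 fold change 2.13, adjusted p = 0.0347), though not without Pac1-/- NMU 1, Pac1-/- NMU 2 or WT NMU 1 (adjusted p 0.0598 to 0.0915). In bulk libraries, fewer cells with a transcript and less of it per cell cannot be told apart.

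**Figure D5:**
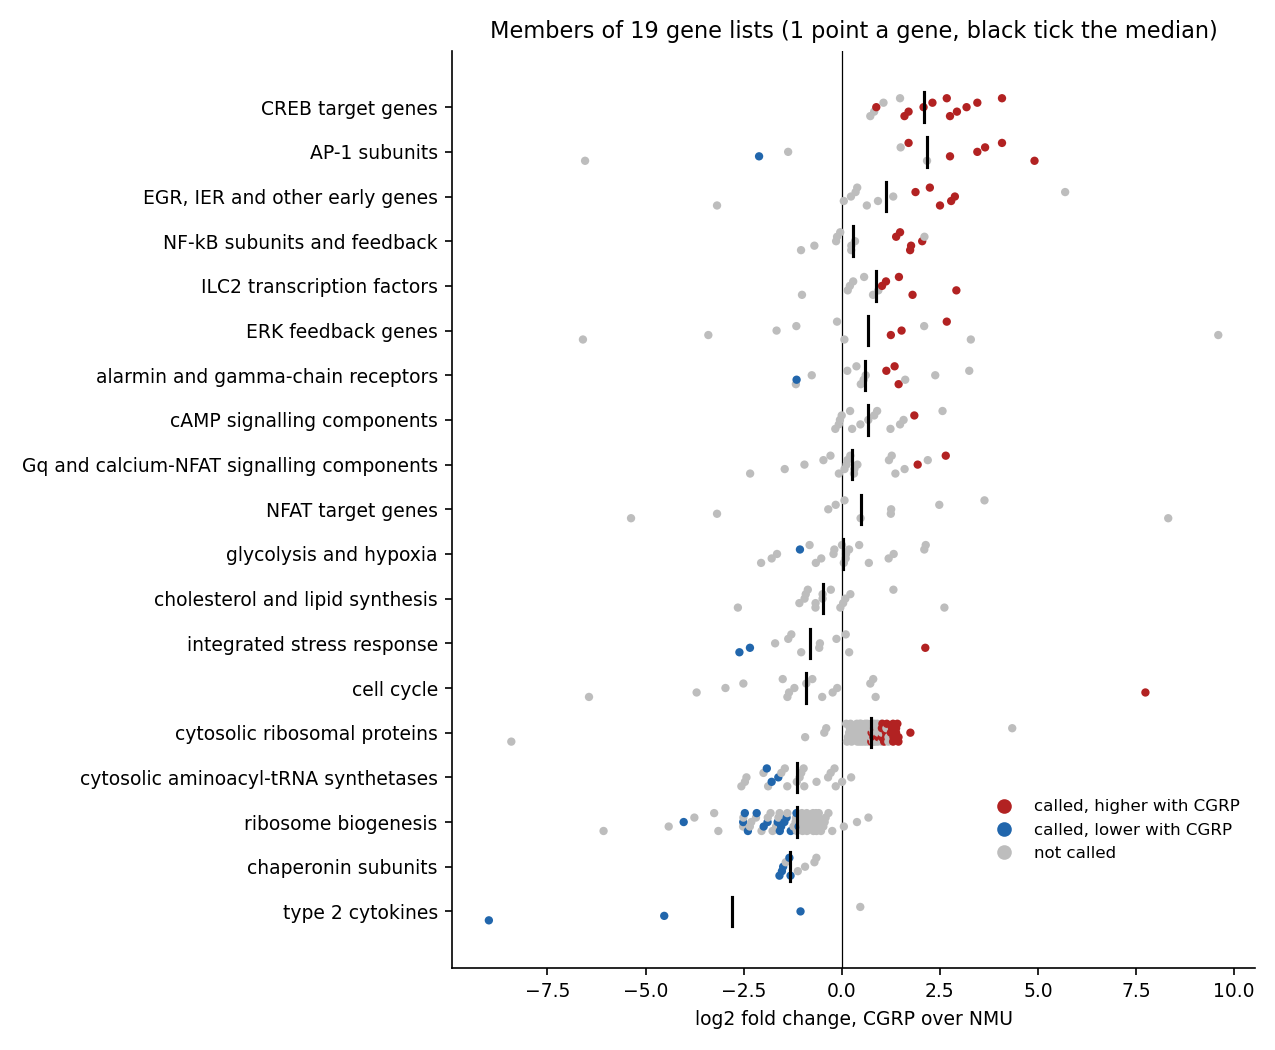
Log2 fold change of CGRP over NMU for the tested members of 19 gene lists, 1 point a gene, red where called higher, blue where called lower and grey where not called, with a tick at the median. CREB targets lie wholly above 0 with a median of 2.08, and all chaperonin subunits below 0 with a median of -1.32, whereas glycolysis genes are centred near 0.

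The remaining lists and single calls are given next. Over all genes tested 3.86% were called, so 0 or 1 call in lists this small shows no lack of calls. Of 20 glycolysis and hypoxia genes, 1 was lower, Pgk1 (log2 fold change -1.07, adjusted p = 0.0332), and not without Pac1-/- CGRP 1, Pac1-/- CGRP 2, Pac1-/- NMU 2, WT CGRP 1, WT NMU 1 or WT NMU 2 (adjusted p 0.0538 to 0.111). Of 16 cholesterol and lipid genes, edgeR called 0, DESeq2 3, and of 6 interferon-stimulated genes 0 and 2. Sms, of polyamine synthesis, was just called at -0.91 (adjusted p = 0.04997), but in no fit that left out a library. Cysltr1, a leukotriene receptor gene, was lower (log2 fold change -1.14, adjusted p = 0.0222), though not without Pac1-/- CGRP 2 (adjusted p = 0.0698). Bcl2, a survival gene, was higher (log2 fold change 1.90, adjusted p = 0.0299), though not without Pac1-/- CGRP 2, Pac1-/- NMU 2, WT CGRP 2, WT NMU 1 or WT NMU 2 (adjusted p 0.0704 to 0.112). Of 17 cell cycle genes, Ccnd1 was called and stood at 3.91, 3.4, 13.1 and 8.89 CPM with CGRP and 0, 0, 0 and 0.09 CPM with NMU, but not without Pac1-/- CGRP 1, Pac1-/- CGRP 2, Pac1-/- NMU 1, Pac1-/- NMU 2, WT NMU 1 or WT NMU 2 (adjusted p 0.0543 to 0.0916). Of Ccnd1, 23.4% of the exon bases are shared with LTO1 on the opposite strand, which had 1015 counts in these 8 libraries. The use of strand in counting is not given. Cxcr4 was called (log2 fold change 3.99, adjusted p = 0.0446) but not without Pac1-/- CGRP 2, Pac1-/- NMU 1, Pac1-/- NMU 2, WT CGRP 2 or WT NMU 1 (adjusted p 0.0906 to 0.116). The surface receptor Klrg1 was lower (log2 fold change -0.78, adjusted p = 0.045), a call lost without any of 7 libraries (all but Pac1-/- CGRP 1, adjusted p 0.0529 to 0.143). Cd86, with 0 counts in all NMU and both WT CGRP libraries and 23.9 and 74.1 CPM in the Pac1-/- CGRP libraries, was called by edgeR (adjusted p = 0.0452) and not by DESeq2 (adjusted p = 0.245). The lists of biological function held 66 called genes in all, and the fits without 1 library called 50 to 65.

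The study named 8 genes for the difference between WT and Pac1-/- ILC2s treated with CGRP, on these samples. It gave Calca, Gpr65, Plac8, Tnfrsf9 and Perp as higher in WT ILC2s, and Il6, Lgals3 and Atf3 as higher in Pac1-/- ILC2s. The 8 genes are given here for CGRP against NMU, a different contrast that does not check the study's one. Atf3 was called, as above, and 7 were not. Gpr65, a proton-sensing Gs-coupled receptor, stood at 616, 624, 389 and 509 CPM with CGRP and 405, 287, 324 and 216 CPM with NMU, with WT NMU 1 inside the CGRP range (log2 fold change 0.81, adjusted p = 0.0669, and 0.00214 with DESeq2). Il6 stood at 93.4, 30.1, 434 and 466 CPM with CGRP and 715, 539, 768 and 476 CPM with NMU, lowest in the 2 WT CGRP libraries and without overlap, with the smallest NMU value just above the highest with CGRP (log2 fold change -1.87, adjusted p = 0.169, but 0.00342 with all 16 libraries in 1 fit). Il6 was called lower with CGRP within WT ILC2s and, over both genotypes, by edgeR with no filter (adjusted p = 1.99e-09). Plac8, Tnfrsf9, Perp and Lgals3 overlapped, at log2 fold changes of 0.14, -0.28, 0.62 and -0.78 (adjusted p = 0.844, 0.58, 0.279 and 0.386). Calca is described above.

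The comparison was repeated within each genotype, on 2 against 2 libraries with the spread shared by all 8. In WT ILC2s 84 genes (0.655%) were called, 54 (0.421%) higher and 30 (0.234%) lower with CGRP, and in Pac1-/- ILC2s 136 (1.06%), 93 (0.725%) higher and 43 (0.335%) lower. Of the 495 genes called over both, 490 had the same sign in the 2 genotypes. These genes were chosen by their difference over the same libraries of both genotypes, which favours a shared sign. The count therefore does not compare the genotypes. Fos was higher by 3.97 in WT and 4.19 in Pac1-/- ILC2s (adjusted p = 0.0169 and 0.00776), and Lmo4 by 2.98 and 2.87 (adjusted p = 0.0107 and 0.00731). Il13 differed by -3.58 in WT and -5.49 in Pac1-/- ILC2s (adjusted p = 0.0288 and 0.0124), and Il9 by -6.63 and -12.69 (adjusted p = 0.0169 and 0.00569). A test of the difference itself, the interaction of genotype and neuropeptide, called 0 genes with edgeR, with 845 at an unadjusted p under 0.05, and 155 (1.21%) with DESeq2. Without 1 library it called 0 to 36, the most without WT CGRP 2. The interaction was -1.91 for Il13 (adjusted p = 0.717), -6.06 for Il9 (adjusted p = 0.387) and 0.22 for Fos (adjusted p = 0.988). With 2 libraries a group, these numbers changed when 1 library was left out, in fits that also tested more genes. WT calls ranged from 11 without WT NMU 2 and 53 without WT NMU 1 to 291 without WT CGRP 2, and were 138 without WT CGRP 1, 179 without Pac1-/- CGRP 1, 140 without Pac1-/- CGRP 2 and 131 without Pac1-/- NMU 2. Pac1-/- calls ranged from 50 and 53 without Pac1-/- NMU 1 and 2 to 294 and 320 without WT CGRP 2 and 1. With only the 4 libraries of a genotype in the fit, 0 genes were called in WT (1721 at an unadjusted p under 0.05) and 1 in Pac1-/- ILC2s.

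To place both sides, each neuropeptide was also set against IL-33 alone. These 2 comparisons share the 4 IL-33 libraries, so their values are given side by side and not related to each other. CGRP against IL-33 gave 230 calls of 13160 genes (1.75%), 202 (1.53%) higher and 28 (0.213%) lower, and NMU against IL-33 13 of 12567 (0.103%), all higher, with 972 at an unadjusted p under 0.05. The 13 were Il17a, Il17f, Il9, Ccl3, Il13, Il4, Cxcl3, Cxcl2, Sftpc, Il3, Il2, Ccl4 and Cd36, of which 11 are cytokine or chemokine genes. The number rose when a library was left out, to 21 to 38 without each of 7 libraries and 15 without Pac1-/- IL-33 2, the highest without WT NMU 2, and it was 169 (1.34%) with DESeq2. For CGRP the number was 133 without Pac1-/- IL-33 1 and 150 without WT IL-33 1. Fits that left out 1 library tested more genes, 14466 to 14900 for NMU and 15741 to 16258 for CGRP. Fos, Fosb and Junb differed by 3.73, 3.69 and 3.12 with CGRP (adjusted p = 0.000197, 0.000605 and 0.00234) and by -0.35, 0.24 and -0.53 with NMU, none of the latter called. Lmo4 differed by 1.49 with CGRP (adjusted p = 0.00973) and -1.43 with NMU (adjusted p = 0.0623). Il13 differed by -1.75 with CGRP (adjusted p = 0.192) and 2.79 with NMU (adjusted p = 0.00306). Il9 differed by -5.01 with CGRP and 4.28 with NMU, called in both (adjusted p = 0.0408 and 0.00264). Il4 was higher by 3.69 with CGRP and 3.22 with NMU, and Il2 by 6.36 and 5.10, all 4 called. Il3, at 0 counts in all IL-33 libraries, was at least 385-fold higher with CGRP and at least 140.4-fold higher with NMU, both against the mean floor of 3 counts in an IL-33 library. The bound for NMU rested on the 2 Pac1-/- libraries and was 77.4-fold without Pac1-/- NMU 1. Il17a was at least 1296-fold higher with NMU by the same measure, and with CGRP at least 49.5-fold higher (adjusted p = 0.136, not called), or 21.3-fold without Pac1-/- CGRP 2. Mrto4 differed by -2.85 with CGRP (adjusted p = 0.0324) and 1.18 with NMU (adjusted p = 0.387).

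Large fold changes were also seen for genes known as markers of other cells. Before sorting to over 90% purity, the study depleted the lung cells of most B cells, T cells and myeloid cells. After culture and treatment, ILC2s were sorted again into lysis buffer. Igkc, the immunoglobulin kappa constant gene, stood at 370.1, 422, 949.6 and 839 CPM with CGRP and 33.4, 10.8, 0.0955 and 1.44 CPM with NMU, under the floor in Pac1-/- NMU 1 and highest in the 2 Pac1-/- CGRP libraries (log2 fold change 6.78 ± 1.40 (SE), adjusted p = 0.0357). Ly6d, a marker of B cell precursors, had 0 counts in the 4 NMU libraries and 19.7, 43.9, 76.9 and 138 CPM in the CGRP libraries, at least 206-fold higher against the mean floor of 3 counts in an NMU library (adjusted p = 0.00323). Of 429 immunoglobulin genes, 31 passed the filter and were tested, and 12 of these were called higher with CGRP. A gene could pass on its CGRP libraries alone, so the filter favoured this direction. In NMU against IL-33, 10 passed. Ms4a1, which encodes CD20, ranged from 0 to 84.4 CPM with CGRP. Sftpc, the surfactant gene of alveolar epithelium, stood at 0.178, 0, 0 and 0 CPM with CGRP and 178, 94.5, 0.191 and 0 CPM with NMU, high in the 2 WT NMU libraries alone (log2 fold change -10.01 ± 1.16 (SE), adjusted p = 0.00329). Lyz2, of macrophages, was also highest in the WT NMU libraries at 0.0889, 0, 0 and 1.29 CPM with CGRP and 112, 27.9, 0 and 0 CPM with NMU and was not called. Whether cells or RNA of other types had a part in the differences described above was not tested, and leaving out immunoglobulin genes keeps other transcripts of such cells. Fos, Junb, Rgs2, Lmo4, Cd69, Areg, Il13 and Cxcl3 were called in all 16 alternatives, among them the fit without the mitochondrial, ribosomal protein and immunoglobulin genes and each fit without 1 library. Il9 was called in 15, and it was not tested where at least 10 counts in every library were required. Several of these genes were chosen for a small p in the same libraries that the alternatives reuse. Their calls therefore do not test a part of other cells or their RNA.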

How the data were processed

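Lung ILC2s of WT and Pac1-/- mice were profiled by mRNA-Seq after 4 hours in culture. The authors aligned reads to mm10 with HISAT2 and deposited 1 table of raw counts per gene, which was used as deposited. The counting tool, the use of strand and the aligner version are not given in the sources used here, and no molecular identifiers are described. Of 51912 gene IDs, 51719 matched GENCODE M21.

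Libraries were grouped by their labels. With edgeR 4.0.16 in R 4.3.3, counts were filtered by filterByExpr and scaled by TMM. The quasi-likelihood test compared 4 CGRP with 4 NMU libraries with genotype as a covariate, and p-values were adjusted by Benjamini-Hochberg over all genes tested. Within-genotype contrasts and the interaction came from a fit with 4 groups. Each neuropeptide was also compared with the 4 IL-33 libraries. The scripts were tested on simulated data. Library measures were compared by two-sided exact permutation tests with scipy 1.17.1. Total counts ranged from 6764990 to 12366500, which sets the counting error of low genes.

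Members and lists were chosen with earlier results of these data known. By the rule for names, 71 genes were chosen, of which 1 is not reported here. They were Dusp2, the genes of CGRP and of the CGRP and NMU receptors, all members of the type 2 and type 3 cytokine lists and of the genes the study named, and the 10 called genes of smallest p per direction whose libraries did not overlap, without clone-based names. Up to 2 called members per direction of every other list and up to 5 of the interaction completed them. A further 71 were named after their values were seen. The lists of ribosome biogenesis, chaperonin subunits, aminoacyl-tRNA synthetases, heat shock genes, ribosomal proteins and immunoglobulin genes were also chosen then. Alternatives were DESeq2 1.42.0, RLE size factors, a filter of 10 counts in every library, no filter, all 16 libraries in 1 fit, no genotype covariate, a replicate block, single-genotype fits and each library left out. The fit without mitochondrial, ribosomal protein and immunoglobulin genes was added after seeing the data. The filter was run anew in every fit.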

Additional observations from a re-analysis of the deposited data

Results flagged for a closer look

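Of 316 sets of 4 libraries examined for the genes chosen to be named and library measures, 15 held a library whose gap to the other 3 exceeded Dixon's critical value. Chance gives about 1 such set in 20. In 2 NMU sets a gene had counts in a single library, Dusp2 at 4.46 CPM in WT NMU 1 and Il22 at 2.34 CPM in WT NMU 2. Ptger2 was highest in WT NMU 2, at 94.0 CPM against 71.3 to 73.3 CPM in the others. Ccr2 was highest in WT NMU 1, at 584 CPM against 499 to 507 CPM. Maf was lowest in WT NMU 2, at 20.8 CPM against 38.6 to 40.1 CPM.

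Among the CGRP libraries, WT CGRP 2 stood apart in 4 genes. Tiparp was 538 CPM there against 848 to 887 CPM, Csf2rb2 147 CPM against 199 to 207 CPM, Pgk1 267 CPM against 151 to 168 CPM and Nr4a3 294 CPM against 224 to 235 CPM. Pac1-/- CGRP 1 stood apart in Cd44, at 908 CPM against 619 to 665 CPM, and in Psat1, at 110.2 CPM against 57.1 to 60.3 CPM. Mmp10 was 2.03 CPM in the same library and at most 0.329 CPM in the other 3. Near the floor, Lyz2 was 1.29 CPM and Ccl3 1.80 CPM in Pac1-/- CGRP 2, and Fosl1 was 1.51 CPM in WT CGRP 1.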

How the results depend on the processing

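The call of CGRP against NMU kept its direction for every called gene chosen to be named, and 82 of 111 were called under every alternative that tested them, 73 of these being tested in all 16; of 1758 values of called genes 125 lost the call, and of 454 values of genes not called 37 gained one. Counts of calls moved more, and the cause was not tested. Fits that left 1 library out had fewer libraries, and more genes passed their filter, 15065 to 15748 against 12834 for CGRP against NMU. CGRP against NMU gave 1691 genes with DESeq2, 820 with all 16 libraries in 1 fit (394 higher and 426 lower), 859 with at least 10 counts in every library, 1102 with no filter (579 higher and 523 lower, the median of all genes then being 0.36) and 252 to 429 without 1 library. In WT the same settings gave 1040, 201, 310, 609 and 11 to 291 genes, and the 4 WT libraries alone 0. In Pac1-/- ILC2s they gave 981, 237, 302, 574 and 50 to 320, and the 4 libraries alone 1. The interaction gave 155 with DESeq2, 5 with all 16 libraries, 90 with no filter and 0 to 36 without 1 library. CGRP against IL-33 gave 1083, 413, 465, 639 and 133 to 243 genes, and NMU against IL-33 169, 28, 27, 77 and 15 to 38. DESeq2 called 110 genes of the lists against 66. With a replicate block, 378 genes were called for CGRP against NMU, 29 in WT, 72 in Pac1-/- and 2 for the interaction. The labels do not say whether replicate numbers pair the samples. Deviations of same-numbered libraries correlated from -0.0866 to 0.114 over 6 pairs of groups, which cannot settle it with 2 libraries a group. Directions turned for values that were not called. Over the fits without 1 library, the log2 fold change of Plac8 ranged from -0.052 to 0.38 and that of Nmur1 from -1.32 to 0.031, both turned without WT NMU 2. Lyz2 ranged from -9.89 to 0.86, being 0.72 and 0.86 without WT CGRP 1 and 2, and Ccl4 from -6.81 to 2.68, being 2.68 without either of these and 0.66 with no genotype covariate. The summed fibroblast markers differed by -0.0642 to 0.888 CPM, below 0 without Pac1-/- CGRP 2. Counts near the floor of 3 limit what can be said of Nmur1, Dusp2, Il22 and Lyz2.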
